A study of Mus musculus with 6 samples.

Results

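The 41 genes described here encode the machinery of cell division: the cyclins and kinases that start mitosis, the kinetochore, spindle checkpoint and chromosomal passenger proteins, the kinesins that build the spindle, and proteins that condense chromosomes or cleave the cell. They were chosen by name from the 55401 genes of the deposited tables, and all 41 were found, were read in every library and passed the filter on low counts that left 16137 genes for testing. RNA had been sequenced from 6 primary cancer cell lines grown from tumours of C57BL/6 mice. The hosts of 3 lines were labelled Rag1KO (replicates 1, 3 and 7), and the hosts of the other 3 lines were labelled WT (replicates 2, 4 and 6). Rag1 is needed to assemble antigen receptor genes, and mice that lack it have no mature T or B cells, so the series sets tumour cells from hosts without adaptive immunity against tumour cells from hosts with it. All 6 lines had been cultured in serum-containing medium after enzymatic digestion of the tumour. The tumour type, the sex and age of the hosts, the number of passages and the density at harvest are not given in the sources used here, nor whether the lines of a label come from separate animals. The p-values below thus refer to the spread among lines, part of which may be technical.

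Mitosis is driven by the kinase Cdk1 bound to A- and B-type cyclins, which are made before division. The anaphase-promoting complex destroys the B-type cyclins once every chromosome is attached to the spindle. Most genes of this machinery are transcribed in late S and G2 phase and shut down in resting cells. In bulk RNA their level therefore follows how many cells are dividing as well as how much RNA each dividing cell holds, and fewer dividing cells and less RNA per dividing cell cannot be told apart.

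The libraries held 55409583 to 62998051 reads, and the lowest count of any member in any library was 407 reads, of Cdc25c in WT replicate 4. Values below are normalized counts, that is, reads scaled by a size factor for each library. Rag1 went against the labels, with 39.3, 126 and 177 normalized counts in the lines labelled Rag1KO and 0 reads in the lines labelled WT. Which part of the gene the knockout removes is not given in the sources used here, so its reads do not settle the labels, and every direction below is a direction between labels. Xist stood at 15.3 normalized counts or less in all 3 lines labelled Rag1KO and in WT replicate 6. It reached 59776 in WT replicate 2 and 32733 in WT replicate 4. The Y-linked genes Kdm5d, Uty and Ddx3y went the other way. Each had at least 683 normalized counts in the lines labelled Rag1KO and in WT replicate 6. In WT replicates 2 and 4 each had 2.01 or less. Eif2s3y, also Y-linked, had 1438 to 2944 in the lines labelled Rag1KO and 0 in those labelled WT. These genes thus split the lines partly along the labels, and the part of host sex in the results was not tested. Fibroblast genes were abundant in all lines: the 10 fibroblast markers summed to 1273040 to 2319010 normalized counts in the lines labelled Rag1KO and to 306998 to 2193260 in those labelled WT, lowest in WT replicate 6. All 10 lymphocyte markers stayed under 10 normalized counts in every line, with Cd3e, Cd3g, Cd8a and Ms4a1 at 0. The 10 leukocyte and macrophage markers summed to 458 to 2110 and 359.9 to 912 normalized counts, the endothelial markers to 306 to 1661 and 49.3 to 1187, the epithelial markers to 1762 to 6337 and 13.2 to 4857, and the melanocyte markers to 715 to 1775 and 639.7 to 2401, in each case with the lines labelled Rag1KO before those labelled WT. Of the leukocyte, endothelial, epithelial and melanocyte lists, 5, 5, 3 and 2 of 10 markers passed the filter on low counts, and the members at 0 in all 6 lines were Tyrobp among the first, Tie1 and Cldn5 among the second, Epcam among the third and Dct among the fourth. The part of cell makeup in the results below was not tested.

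The mitosis genes moved up and down together from line to line, and the lines of the 2 labels overlapped. Their mean log2 level was 11.9, 10.9 and 11.6 in Rag1KO replicates 1, 3 and 7, against 11.2, 10.8 and 11.5 in WT replicates 2, 4 and 6. Rag1KO replicate 3 and WT replicate 4 were the low lines of the 6, and Rag1KO replicate 1 was the high one. Together the 41 genes took 0.335%, 0.156% and 0.279% of all reads in the lines labelled Rag1KO and 0.199%, 0.153% and 0.27% in the lines labelled WT. Rag1KO replicate 1 was the highest line for 25 members, WT replicate 6 for 10 and Rag1KO replicate 7 for 6. At the other end, WT replicate 4 was the lowest line for 24 members and Rag1KO replicate 3 for 15, with WT replicates 2 and 6 lowest for 1 each. The highest line exceeded the lowest by 1.78-fold to 4.37-fold, depending on the gene.

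**Figure D1:**
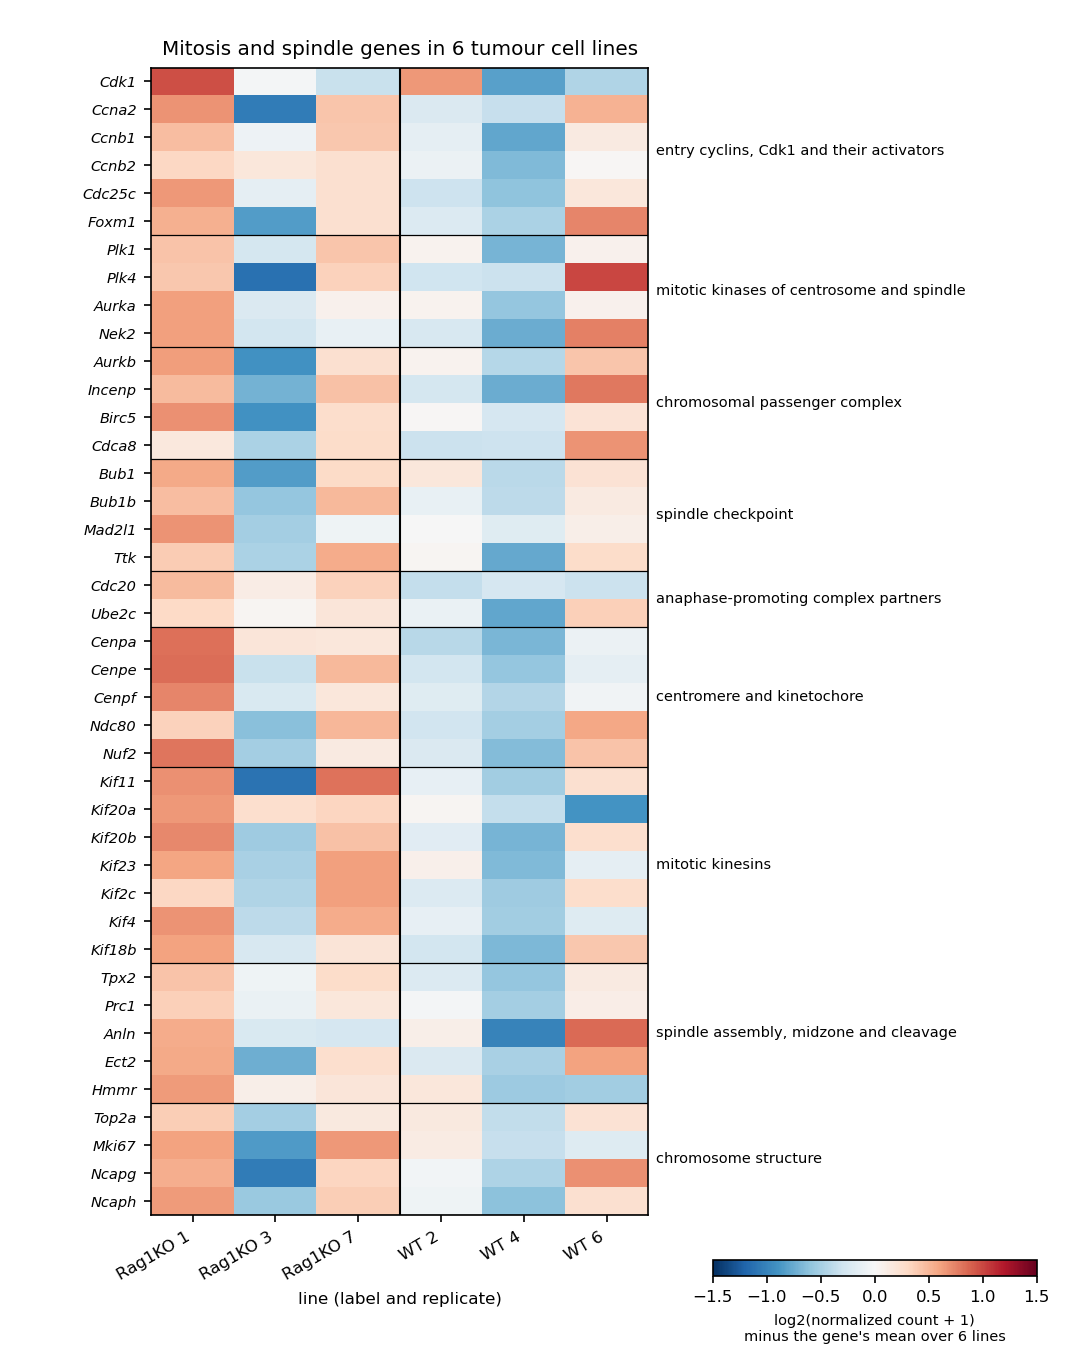
Level of each of the 41 mitosis and spindle genes in each line, as log2(normalized count + 1) minus the mean of that gene over the 6 lines, with genes in rows grouped by role, lines labelled Rag1KO on the left and lines labelled WT on the right. Whole columns are red (Rag1KO replicate 1) or blue (WT replicate 4), while Rag1KO replicate 3 is mostly blue with some red and WT replicate 6 mostly red with some blue.

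Means of log2(value + 1) were compared between the labels, and 50% of all genes tested were higher in the lines labelled Rag1KO. Of the 41 members, 36 had a higher mean in these lines and 5 a lower one. Their median log2 difference, Rag1KO minus WT, was 0.30, or 1.23-fold, against −0.00 over all genes tested. None of the 41 passed the threshold in limma with Benjamini-Hochberg adjustment over all genes, the adjusted p lying between 0.850 and 0.998. The background was 0.0062% of genes called, which was 1 gene, the Y-linked Eif2s3y (limma adjusted p 0.00525). At an unadjusted p under 0.05 stood 3 members, Cdc20, Cenpa and Kif20a, all higher in the lines labelled Rag1KO, where 4.67% of all genes tested fell under that value and 2.61% did so with the higher mean under the Rag1KO label. By edgeR's quasi-likelihood test and by DESeq2 on the recovered reads, 0 members were called and 3 members each had an unadjusted p under 0.05, the backgrounds being 0% and 0.403% for adjusted calls and 4.44% and 6.54% for unadjusted ones. The size of the shift rested on single lines: the median was 0.07 without Rag1KO replicate 1, 0.57 without Rag1KO replicate 3, 0.10 without WT replicate 4 and 0.50 without WT replicate 6, and 25, 41, 25 and 41 members were then higher in the lines labelled Rag1KO, against 50.3%, 51.4%, 50.4% and 48.5% of all genes tested. Without Rag1KO replicate 7 there were 28 and without WT replicate 2 there were 34, with backgrounds of 51.1% and 50.9%.

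**Figure D2:**
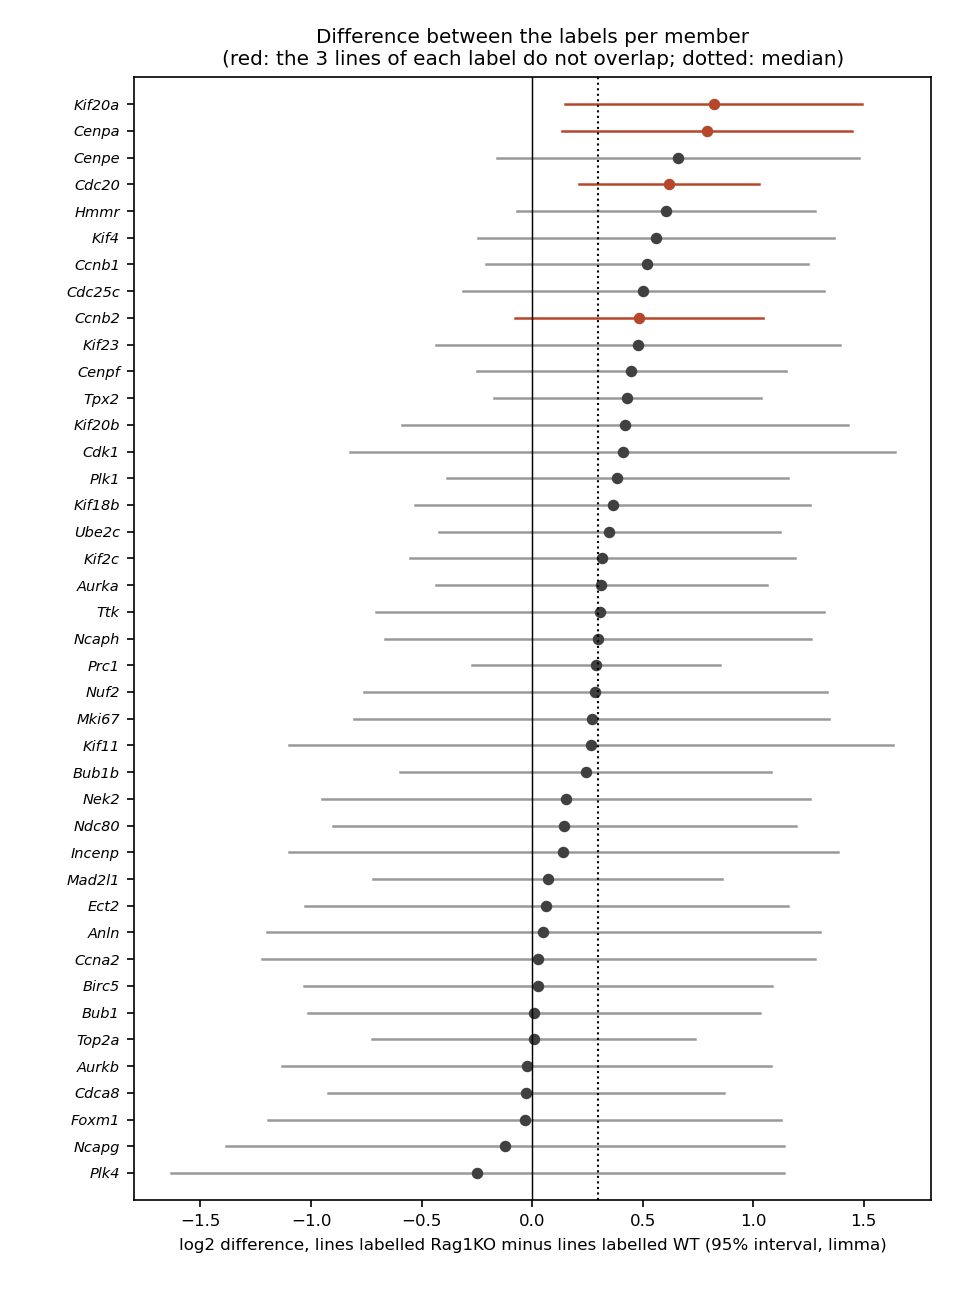
Log2 difference of each member, lines labelled Rag1KO minus lines labelled WT, with the 95% interval from limma over 3 lines per label, on the log2(value + 1) scale. Points run from −0.25 for Plk4 at the bottom to 0.82 for Kif20a at the top, the dotted median lies at 0.30, and the 4 genes whose lines did not overlap between labels are in red.

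In 4 members the 3 lines of one label lay entirely above the 3 of the other, all with the lines labelled Rag1KO higher; among all genes tested 5.6% were separated in that direction and 6.49% in the other, in which no member was. Cdc20 (chromosome 4, 118432901 to 118437352 on the minus strand of mm10), which activates the anaphase-promoting complex when the checkpoint is satisfied, had 3992, 3094 and 3637 normalized counts in the lines labelled Rag1KO, against 2247, 2412 and 2291 in the lines labelled WT. The lowest line labelled Rag1KO stood clear of a tight group of lines labelled WT, and the means were 3574 ± 453 normalized counts for Rag1KO and 2317 ± 85.5 for WT (SD, n = 3 each). Its log2 difference was 0.62, with a 95% interval of 0.21 to 1.03, an unadjusted p of 0.0101 and an adjusted p of 0.850 in limma.

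Kif20a, a kinesin of chromosome 18 that carries passenger proteins to the spindle midzone, was at 10040.2, 7612 and 7949.7 normalized counts in the lines labelled Rag1KO and at 6478, 4957 and 3436 in the lines labelled WT. WT replicate 6 was the lowest of all lines for this gene, although it was the highest line for 10 other members. The difference was 0.82 on the log2 scale (95% interval 0.15 to 1.49, limma adjusted p 0.850), and 0.58 without WT replicate 6. Cenpa (chromosome 5, 30666777 to 30674830, plus strand) encodes the histone H3 variant that marks centromeres. It reached 3749.85, 2415 and 2396 normalized counts in the lines labelled Rag1KO, against 1593, 1322 and 1992 in the lines labelled WT. Replicate 1 set the high end of the first group, and the log2 difference was 0.79 (95% interval 0.13 to 1.44, limma adjusted p 0.850). Ccnb2 (chromosome 9, 70407692 to 70421547, minus strand), a B-type cyclin, had 2528, 2298 and 2399.6 normalized counts in the lines labelled Rag1KO, a narrow band, against 1920.5, 1287 and 2063 in those labelled WT. Its difference of 0.48 on the log2 scale had an interval that reached below 0, from −0.08 to 1.05 (limma adjusted p 0.850).

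The number of separated members depended on which lines were kept. Without Rag1KO replicate 3 there were 24, where 10.4% of all genes tested were separated with Rag1KO higher, and without WT replicate 6 there were 9, where 9.6% were. It was 4 without Rag1KO replicate 1 (background 11.1%), 4 without Rag1KO replicate 7 (10.2%), 6 without WT replicate 2 (11.9%) and 4 without WT replicate 4 (12.8%).

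**Figure D3:**
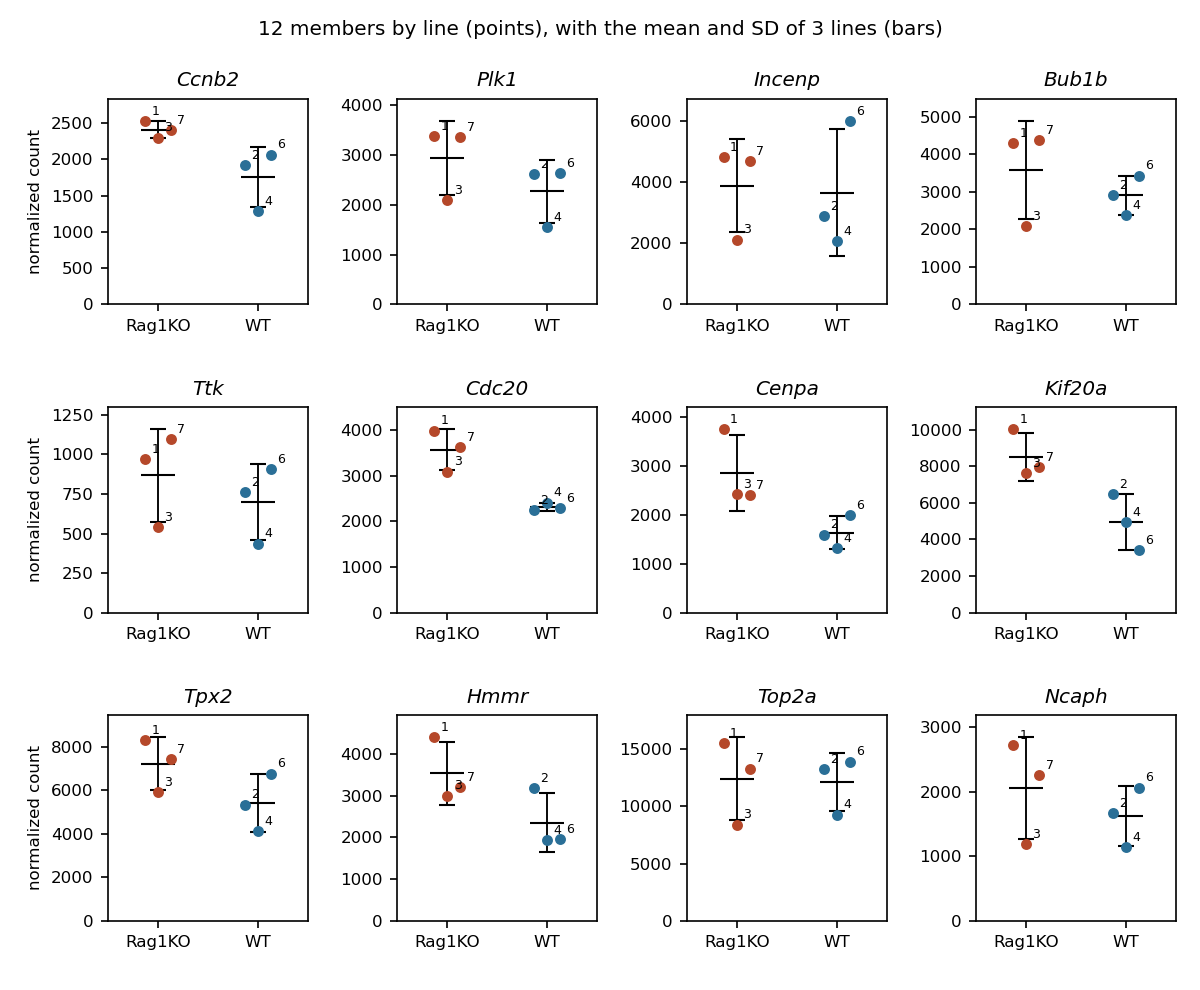
Normalized counts of 12 members in each line (points, with the replicate number), lines labelled Rag1KO left and lines labelled WT right, with the mean and SD of the 3 lines of each label as bars. The points of the labels do not overlap for Ccnb2, Cdc20, Cenpa and Kif20a, and overlap for the other 8 genes.

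Promoters of the members were searched for short sequence motifs. Genes of late cell cycle phases are known to carry a cell cycle homology region with the core TTTGAA, bound by the MuvB-containing DREAM and B-MYB complexes, and CCAAT boxes, bound by NF-Y. The members were chosen by name as mitosis genes, so the shares below are not independent of that choice. RefSeq promoters (build GRCm38.p6, 250 bases before to 50 after the start) were found for 34 members, giving 36 promoters. None was found for Ccna2, Cdc25c, Foxm1, Aurkb, Tpx2, Kif20a and Incenp. On either strand, TTTGAA occurred in 27 of the 36, or 75%, against 17.9% of all 32817 promoters of the same length, and within 50 bases of the start in 69.4% against 4.95%. CCAAT occurred in 27 of the 36, against 37.4% of all promoters, and at least 2 copies were found in 52.8% of member promoters against 11.7% of all. The motifs were counted separately, and a match of one may share end letters with a match of the other. Promoters of other mitosis genes held TTTGAA in 34.5% of 113 cases and those of DNA replication genes in 18.4% of 38. CCAAT occurred in 60.2% and 50% of these promoters, and at least 2 copies in 30.1% and 26.3%. For CCAAT both lists thus also lay above all promoters, so a raised share was not particular to the members.

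Stretches from 120 bases before to 25 after the start are given for the 3 separated members with a promoter that can be shown, for Cdk1 and, as a member without either motif, for Plk4. TTTGAA and CCAAT are in capitals; CCAAT reads ATTGG where it lies on the other strand. The positions are chr4:118437319-118437463 (minus strand) for Cdc20, chr9:70421530-70421674 (minus strand) for Ccnb2, chr5:30666766-30666910 (plus strand) for Cenpa, chr10:69352888-69353032 (minus strand) for Cdk1 and chr3:40799831-40799975 (plus strand) for Plk4.
Cdc20: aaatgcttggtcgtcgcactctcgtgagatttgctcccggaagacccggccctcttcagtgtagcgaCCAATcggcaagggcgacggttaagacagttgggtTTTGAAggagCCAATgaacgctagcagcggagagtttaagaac
Ccnb2: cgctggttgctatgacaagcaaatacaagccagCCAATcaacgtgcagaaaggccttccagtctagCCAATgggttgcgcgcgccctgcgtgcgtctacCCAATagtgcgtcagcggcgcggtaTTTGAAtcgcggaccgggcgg
Cenpa: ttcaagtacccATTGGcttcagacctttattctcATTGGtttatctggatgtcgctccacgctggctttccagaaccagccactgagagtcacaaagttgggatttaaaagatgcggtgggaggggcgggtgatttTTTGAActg
Cdk1: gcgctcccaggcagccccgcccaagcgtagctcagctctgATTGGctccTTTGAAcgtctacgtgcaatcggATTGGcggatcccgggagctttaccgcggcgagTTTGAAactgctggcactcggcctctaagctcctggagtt
Plk4: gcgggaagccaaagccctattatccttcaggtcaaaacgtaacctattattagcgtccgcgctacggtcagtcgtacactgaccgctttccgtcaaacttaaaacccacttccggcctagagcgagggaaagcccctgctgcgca
In Ccnb2 the 3 CCAAT boxes began 87, 54 and 21 bases before the start and TTTGAA at base 5 after it. Cdc20 had TTTGAA 18 bases before the start with CCAAT on both sides, and the stretch of Cdk1 had 2 of each motif. Over the 34 members, the 25 with TTTGAA had a median log2 difference between labels of 0.32 (range −0.12 to 0.79) and the 9 without it 0.15 (−0.25 to 0.66), ranges that overlap. The members for which no promoter was found, with differences from −0.03 (Foxm1) to 0.82 (Kif20a), are in neither group. A match of letters does not show that a factor binds there.

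The counts by role below use means of log2(value + 1), which can differ in direction from means of normalized counts. They are to be read against the 50% of all genes tested that had a higher mean under the Rag1KO label. Most of these counts moved with single lines. Without WT replicate 4, a higher mean was left in 4 of 6 genes that start mitosis, 2 of 4 centrosome and spindle kinases, 0 of 4 passenger genes, 1 of 4 checkpoint genes, 4 of 5 kinetochore genes, 7 of 7 kinesins, 3 of 5 spindle assembly genes and 2 of 4 chromosome structure genes. Without Rag1KO replicate 3, every gene of every group had a higher mean in the lines labelled Rag1KO.

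Among the genes that start mitosis (Cdk1, Ccna2, Ccnb1, Ccnb2, Cdc25c and Foxm1), 5 of 6 had a higher mean in the lines labelled Rag1KO, with log2 differences from −0.03 to 0.52. Cdk1, the kinase itself, was at 11760.3, 5895 and 4758 normalized counts in the lines labelled Rag1KO and at 9435, 3398 and 4393 in those labelled WT. It was high in 1 line of each label and so followed neither the labels nor the other members closely. The transcription factor gene Foxm1, which drives many of the other members, had 5537, 2139 and 4522 normalized counts in the lines labelled Rag1KO, against 3311, 2748 and 6325 in the lines labelled WT, with the lowest and the highest line under different labels. Cdk1 and Foxm1, like Ccna2, Plk4, Kif11, Mki67 and Anln below, were picked out after their values were seen.

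Of the kinases of centrosome and spindle (Plk1, Plk4, Aurka and Nek2), 3 of 4 were higher on average in the lines labelled Rag1KO, with log2 differences from −0.25 to 0.38. Plk1 (chromosome 7, 122159439 to 122169873, plus strand), which acts from mitotic entry to cytokinesis, had 3384, 2093 and 3359 normalized counts in the lines labelled Rag1KO, against 2617, 1547 and 2641 in those labelled WT. Each label had 2 similar lines and a lower one, and the difference of 0.38 (95% interval −0.39 to 1.15, limma adjusted p 0.850) was within that spread. Plk4, the kinase that starts centriole duplication, varied most of all members, by 4.37-fold, between 738 normalized counts in Rag1KO replicate 3 and 3222 in WT replicate 6.

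The chromosomal passenger complex corrects faulty attachments of chromosomes to the spindle through its kinase Aurkb, with Incenp as scaffold and Birc5 (survivin) and Cdca8 (borealin) as targeting subunits. Of its 4 genes 2 were higher and 2 lower by the mean of log2 values, with log2 differences from −0.03 to 0.14. The median of the group was 0.45 without Rag1KO replicate 3, with all 4 higher, and −0.21 without Rag1KO replicate 1 and −0.19 without WT replicate 4, with all 4 lower; by edgeR and by DESeq2 Aurkb turned positive and 3 were higher. Incenp (chromosome 19, 9872296 to 9899551, minus strand) had 4815, 2120.4 and 4691 normalized counts in the lines labelled Rag1KO, against 2875, 2072 and 5994 in the lines labelled WT. The labels overlapped over nearly their whole range (log2 difference 0.14, 95% interval −1.10 to 1.38, limma adjusted p 0.964). Per kb of exon the levels were 895 and 842 normalized counts for Incenp, 624 and 596 for Aurkb, 613 and 550.1 for Birc5 and 291 and 305 for Cdca8, as means of the lines labelled Rag1KO and of those labelled WT. By these means of normalized counts Aurkb was higher under the Rag1KO label, although it was counted as lower on the log2 scale. The exon length counts the exons of all annotated transcripts, so levels per kb, here and below, are not strictly comparable between genes.

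All 4 spindle checkpoint genes (Bub1, Bub1b, Mad2l1 and Ttk), which hold cells before anaphase until attachment is complete, had a higher mean in the lines labelled Rag1KO, by 0.01 to 0.31 on the log2 scale. This held for 1 of 4 without WT replicate 4 (median −0.00) and for 2 of 4 without Rag1KO replicate 1 (median −0.09). Bub1b (chromosome 2, 118598211 to 118641591, plus strand), encoding the inhibitor BubR1, had 4293, 2086 and 4371 normalized counts in the lines labelled Rag1KO, against 2900.35, 2381 and 3428 in the lines labelled WT. Rag1KO replicates 1 and 7 lay above all lines labelled WT and replicate 3 below all of them (log2 difference 0.24, 95% interval −0.60 to 1.08, limma adjusted p 0.889). Ttk (chromosome 9, 83834689 to 83872389, plus strand), the kinase that recruits checkpoint proteins, had 969, 539 and 1097 normalized counts in the lines labelled Rag1KO and 763, 436 and 905 in those labelled WT, a difference of 0.31 (95% interval −0.70 to 1.32, limma adjusted p 0.883). The other partner of the anaphase-promoting complex besides Cdc20, the ubiquitin-conjugating enzyme gene Ube2c, was higher by 0.35 on average and overlapped between the labels.

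All 5 centromere and kinetochore genes (Cenpa, Cenpe, Cenpf, Ndc80 and Nuf2) had a higher mean in the lines labelled Rag1KO, by 0.15 to 0.79 on the log2 scale. Rag1KO replicate 1 was the highest line for 4 of the 5 and WT replicate 4 the lowest for 4. The NDC80 complex links kinetochores to microtubules. Per kb of exon the levels of its subunits were 247 and 223 normalized counts for Ndc80, 337 and 271 for Nuf2, 289 and 256 for Spc24 and 399 and 344 for Spc25, as means of the lines labelled Rag1KO and of those labelled WT. Each of the 4 was thus higher on average under the Rag1KO label, and none was separated.

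All 7 mitotic kinesins (Kif11, Kif20a, Kif20b, Kif23, Kif2c, Kif4 and Kif18b) had a higher mean in the lines labelled Rag1KO, by 0.27 to 0.82 on the log2 scale, with Kif20a at the top and Kif11 at the bottom. Kif11, the motor that pushes spindle poles apart, had 5032, 1446 and 5497 normalized counts in the lines labelled Rag1KO, against 2857, 2181 and 3698 in the lines labelled WT. Rag1KO replicate 3 was thus the lowest of the 6 lines for Kif11 while it exceeded every line labelled WT for Kif20a. Kif23 forms centralspindlin with Racgap1, and per kb of exon the means were 384 and 266 normalized counts for Kif23 and 1030 and 879.7 for Racgap1, the lines labelled Rag1KO before those labelled WT.

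Of the genes for spindle assembly, midzone and cleavage (Tpx2, Prc1, Anln, Ect2 and Hmmr) all 5 had a higher mean in the lines labelled Rag1KO, by 0.05 to 0.61 on the log2 scale. By edgeR and by DESeq2 4 did, where Anln turned to −0.07. The means of normalized counts of Anln were 9659 in the lines labelled Rag1KO and 10239 in those labelled WT. Hmmr (chromosome 11, 40701395 to 40733422, minus strand), whose product binds hyaluronan and spindle microtubules, had 4397, 2999 and 3206 normalized counts in the lines labelled Rag1KO, against 3170.25, 1927 and 1961 in the lines labelled WT. It missed separation through WT replicate 2 alone, which lay just above Rag1KO replicate 3 (log2 difference 0.61, 95% interval −0.07 to 1.28, limma adjusted p 0.850). Tpx2 (chromosome 2, 152847964 to 152895321, plus strand), the activator of Aurora A on the spindle, had 8313, 5905 and 7458 normalized counts in the lines labelled Rag1KO, against 5341, 4126 and 6777 in those labelled WT. WT replicate 6 overlapped the Rag1KO range here (log2 difference 0.43, 95% interval −0.17 to 1.03, limma adjusted p 0.850). Anln, which encodes the contractile ring scaffold anillin, was highest in WT replicate 6 at 16465 normalized counts and lowest in WT replicate 4 at 4555, so that the lines labelled WT enclosed all 3 lines labelled Rag1KO.

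For chromosome structure (Top2a, Mki67, Ncapg and Ncaph), 3 of 4 genes were higher on average in the lines labelled Rag1KO, with log2 differences from −0.12 to 0.30. Top2a (chromosome 11, 98992943 to 99024189, minus strand), the topoisomerase that untangles sister chromatids, had 15524.5, 8408 and 13297 normalized counts in the lines labelled Rag1KO, against 13257, 9279.99 and 13915.5 in the lines labelled WT. The labels gave nearly the same mean, with a log2 difference of 0.01 and a 95% interval of −0.72 to 0.74 (limma adjusted p 0.998). Ncaph (chromosome 2, 127103809 to 127133954, minus strand), a condensin I subunit, had 2722, 1182 and 2252 normalized counts in the lines labelled Rag1KO and 1664, 1136 and 2061 in those labelled WT (log2 difference 0.30, 95% interval −0.66 to 1.26, limma adjusted p 0.881). Per kb of exon, condensin I subunits had means in the lines labelled Rag1KO and WT of 1266 and 1290.2 normalized counts for Smc4, 1266 and 789.8 for Ncapd2, 659.9 and 689 for Smc2, 476 and 376 for Ncaph and 239 and 248 for Ncapg. Mki67, the source of the Ki-67 proliferation marker, had 11818, 4325 and 12207 normalized counts in the lines labelled Rag1KO, against 8489, 6143 and 6824 in the lines labelled WT, so the lowest line again carried the Rag1KO label.

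Much of the variation was common to the members, and what remained set Rag1KO replicate 3 and WT replicate 6 apart. The SD of a member's log2 level over the 6 lines had a median of 0.52, and of 0.24 once the mean of all members in each line had been taken off. After that step, Rag1KO replicate 3 was relatively high for Kif20a (0.68 on the log2 scale), Cenpa (0.62), Ccnb2 (0.60), Cdc20 (0.54) and Hmmr (0.52). The same line was relatively low for Plk4 (−0.70), Kif11 (−0.68), Ncapg (−0.62) and Ccna2 (−0.62). In WT replicate 6, Plk4 (0.79), Anln (0.64), Incenp (0.58) and Nek2 (0.54) were relatively high, and Kif20a (−1.10), Hmmr (−0.74), Cdk1 (−0.66) and Cdc20 (−0.53) relatively low. The 4 separated members thus all had positive values in Rag1KO replicate 3 and negative values in WT replicate 6. These values come from the same lines as the separation and are not independent of it. Separation needs a higher level in Rag1KO replicate 3, whose members' mean was 10.9, than in WT replicate 6, where it was 11.5. A higher relative value in Rag1KO replicate 3 than in WT replicate 6 was therefore fixed in advance for separated members.

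**Figure D4:**
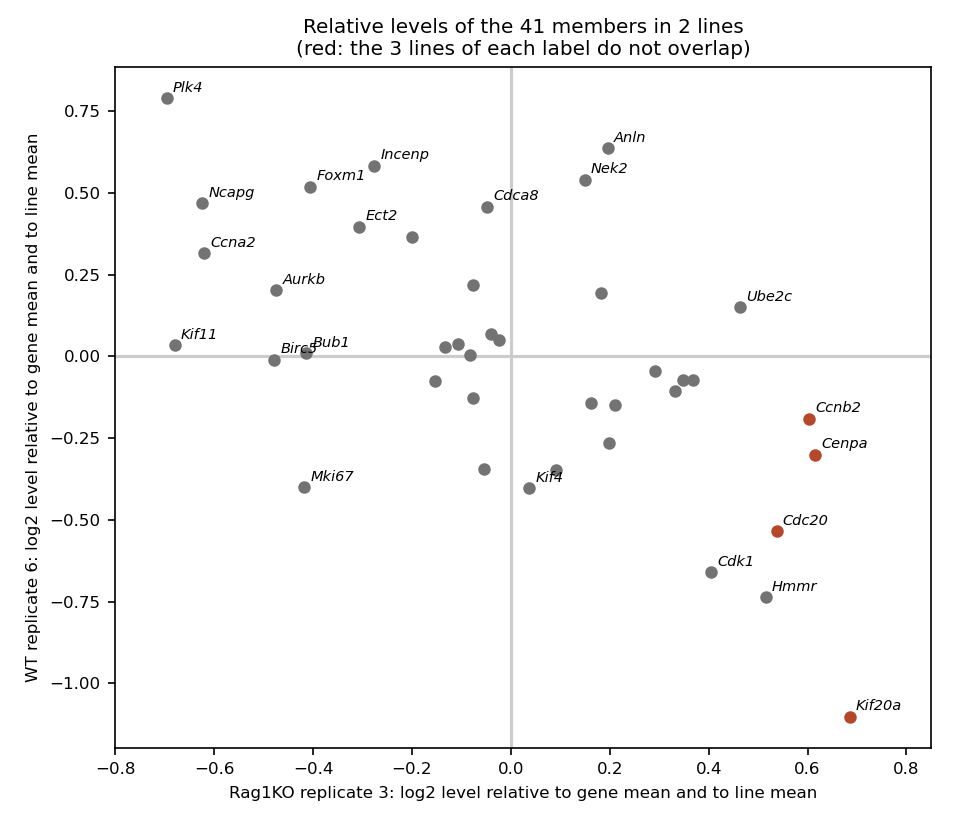
Relative log2 level of the 41 members in Rag1KO replicate 3 (horizontal axis) and WT replicate 6 (vertical axis), after taking off each gene's mean over the 6 lines and each line's mean over the members; both lines were picked after their values were seen. Plk4 lies at the upper left (−0.70 and 0.79) and Kif20a at the lower right (0.68 and −1.10), with the 4 members whose labels did not overlap in red.

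A list of 117 other mitosis genes, of which 116 were found and tested, had 79 higher and 37 lower in the lines labelled Rag1KO, with a median log2 difference of 0.11. Over all genes tested, 4.67%, 4.44% and 6.54% had an unadjusted p under 0.05 in limma, edgeR and DESeq2. The counts of this list are to be read against these shares. Of the 116, 0 passed the threshold in limma, edgeR or DESeq2. An unadjusted p under 0.05 was found for 6 each in edgeR and DESeq2 and for 3 in limma. Those 3 were Ckap2l, a spindle protein gene, with 4176, 2577 and 3581 normalized counts in the lines labelled Rag1KO against 1915.4, 1639 and 1915.6 in those labelled WT, Cit, the citron kinase gene of late cytokinesis, and Aspm, a spindle pole gene. Cit had 2121, 1673 and 1457 normalized counts in the lines labelled Rag1KO, against 1423, 737 and 807 in the lines labelled WT (log2 difference 0.87). Aspm had 3195, 1802 and 2315 normalized counts in the lines labelled Rag1KO, against 1699.9, 1116 and 1516 in the lines labelled WT (log2 difference 0.74). All 3 were separated between the labels. In the whole list 5 of 116 genes were separated with Rag1KO higher and 2 with Rag1KO lower, where 5.6% and 6.49% of all genes tested were. Ckap2l had a log2 difference of 0.89 and an adjusted p of 0.850 in limma and 0.174 in DESeq2. On the other side the lowest p values belonged to Ube2s (log2 difference −0.38), the chain-elongating enzyme of the anaphase-promoting complex, Haus2 (−0.28), an augmin subunit, and the kinetochore gene Mis12 (−0.23), with adjusted p 0.850 each in limma. Ube2s had 5109, 4152 and 5151 normalized counts in the lines labelled Rag1KO, against 5805, 5189.9 and 8075 in the lines labelled WT. Haus2 had 1302, 1227 and 1053 normalized counts in the lines labelled Rag1KO, against 1437, 1357 and 1547.0 in the lines labelled WT. Both were separated with Rag1KO lower, while Mis12, between 1820.3 and 2309.5 normalized counts in the lines labelled Rag1KO and between 2045 and 2630.2 in those labelled WT, overlapped. The median of this list was −0.00 without Rag1KO replicate 1, 0.36 without Rag1KO replicate 3, −0.01 without WT replicate 4, 0.06 without Rag1KO replicate 7 and 0.28 without WT replicate 6.

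DNA replication genes act in S phase, before mitosis. Of 42, 17 were higher and 25 lower in the lines labelled Rag1KO, with a median log2 difference of −0.08. Their mean log2 level was 11.3, 9.85 and 10.9 in the lines labelled Rag1KO, against 10.7, 10.3 and 11.3 in the lines labelled WT. The members' mean exceeded that of the replication genes by 0.57, 1.03 and 0.73 on the log2 scale in the lines labelled Rag1KO, and by 0.57, 0.44 and 0.19 in the lines labelled WT. Rag1KO replicate 3 had the largest excess and WT replicate 6 the smallest, while Rag1KO replicate 1 and WT replicate 2 were level; this difference between lists was not tested. The sign of the replication list turned with 1 line, its median being 0.30 without Rag1KO replicate 3 and 0.20 without WT replicate 6, and −0.36, −0.22, −0.24 and −0.32 without Rag1KO replicate 1, Rag1KO replicate 7, WT replicate 2 and WT replicate 4.

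**Figure D5:**
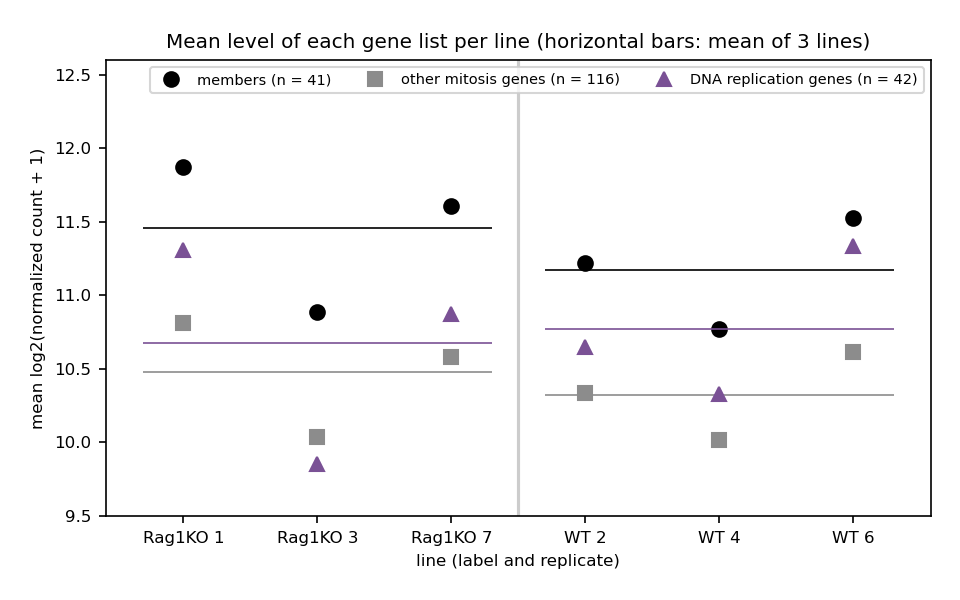
Mean log2(normalized count + 1) of the 41 members, 116 other mitosis genes and 42 DNA replication genes in each line, lines labelled Rag1KO left and lines labelled WT right, with the mean of 3 lines as a horizontal bar. Levels can be compared across lines but not between lists, whose genes differ in length; the gap between members and replication genes is widest in Rag1KO replicate 3 (1.03) and narrowest in WT replicate 6 (0.19).

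Genes known to govern this programme were read in the same fit. Of 22 regulators of the E2F, MYB-MuvB and NF-Y families, 6 were higher and 16 lower in the lines labelled Rag1KO, with a median of −0.25 (0.05 without WT replicate 6). Of these, 0 were called by limma, edgeR or DESeq2 and 0, 0 and 1 had an unadjusted p under 0.05. The shares of all genes tested under that value were 4.67%, 4.44% and 6.54%. Mybl2, which encodes B-MYB, had 1299, 307 and 1188 normalized counts in the lines labelled Rag1KO, against 691, 657 and 2203 in the lines labelled WT (log2 difference −0.36, 0.31 without Rag1KO replicate 3 and 0.21 without WT replicate 6). The repressor gene E2f8 was at 8066 normalized counts in WT replicate 6 and at most at 1102 in the other 5 lines, and its log2 difference was −1.55 (limma adjusted p 0.850; −0.49 without WT replicate 6). The differences of E2f1 and E2f7 were −0.10 and 0.21, with adjusted p of 0.951 and 0.961 in limma.

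Of 14 cell cycle inhibitors and D cyclins 8 were higher and 6 lower under the Rag1KO label, and 0 passed in limma, edgeR or DESeq2 or had an unadjusted p under 0.05 in any of them. Cdkn2a, the locus of p16 and p19ARF, had 2557, 6883 and 11716 normalized counts in the lines labelled Rag1KO, against 7522, 16.4 and 97.7 in the lines labelled WT. Of the 2 lines below 100 normalized counts, WT replicate 4 was a low line for the members and WT replicate 6 was not. The log2 difference of Cdkn2a was 4.65 in limma and 1.48 in edgeR and DESeq2. Cdkn2b differed by 2.51 (0.46 in edgeR and DESeq2, −0.23 without WT replicate 6), Cdkn1a by −0.30 and the cyclin D1 gene Ccnd1 by −0.55 on the log2 scale, with limma adjusted p of 0.850, 0.954 and 0.876.

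Outside the mitosis and replication lists, the 5 genes whose log2 levels followed the members' mean most closely over the 6 lines, among 13461 genes compared, were Xrcc2, 4930579G24Rik, Iqgap3, Polq and Mrpl16. Polq encodes a DNA polymerase of end joining and Iqgap3 a scaffold protein. Iqgap3 had 3459, 1060.2 and 2785 normalized counts in the lines labelled Rag1KO, against 1588, 972 and 1983 in the lines labelled WT, with the same 2 low lines as the members. They were chosen as the closest of many genes over 6 points that share their libraries and are given as a description.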

How the data were processed

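Each of 6 deposited files gives a signal for every gene in 1 library. The authors' values are whole reads divided by a size factor, as the values show: all are whole within 0.01 reads after multiplication by that factor. The submitters' processing notes name STAR 2.7.9a, Trim Galore 0.6.6, mm10, DESeq2 and FastQC without roles. The read counter and gene annotation are not given in the sources used here. Positions and exon lengths are from GENCODE M21, where 55141 of 55401 gene IDs were found. The exon length of a gene covers the exons of all its annotated transcripts.

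Members and lists were chosen with earlier results of these data known. The filter was edgeR's filterByExpr on the recovered reads. On log2(value + 1), limma 3.58.1 was run with its intensity trend, lines labelled Rag1KO minus lines labelled WT, two-sided, with Benjamini-Hochberg adjustment over 16137 genes, a threshold of 0.05 and 95% intervals. Fold changes on this scale understate those of low genes. edgeR 4.0.16 (TMM) and DESeq2 1.42.0 on the recovered reads, limma on TMM log2 CPM, no filter, a pseudocount of 0.1 and leaving out each line were alternatives. Counts of members higher or separated without each line were added after the data were seen. The fits were tested on simulated data whose planted changes exceeded the difference between labels of every member. That test does not show whether changes as small as those of the members would be found. Values per line are given, by rule, for the member of highest level per kb and that of lowest p in each of 9 role groups, and for separated members; of other mitosis genes, for the 3 of lowest p in each direction. R 4.3.3 and Python 3.11.15 were used.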

Additional observations from a re-analysis of the deposited data

How the results depend on the processing

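No paired analysis was possible because the labels share no replicate number between the 2 groups. The number of genes called over all genes was 1 in limma, 0 with edgeR and 65 with DESeq2, and 0 to 5 when 1 line was left out (5 without WT replicate 6); at an unadjusted p under 0.05 stood 754, 717 and 1055 genes in limma, edgeR and DESeq2; 0 of the 41 members and 0 of the other mitosis genes were called in any of these. With 1 line left out, the members' median ranged from 0.07 to 0.57, that of the other mitosis genes from −0.01 to 0.36 and that of the replication genes from −0.36 to 0.30. The number of members higher in the lines labelled Rag1KO ranged from 25 to 41, of other mitosis genes from 56 to 104, of replication genes from 7 to 38, and of separated members from 4 to 24. Another test, scaling, filter or pseudocount left the sign of the 12 members named by rule as it was. Leaving out 1 line turned the sign of 3 of these 12: Incenp ranged from −0.19 to 0.57, Ttk from −0.0018 to 0.62 and Top2a from −0.18 to 0.26. Of the members picked after their values were seen, Foxm1 ranged from −0.31 to 0.37 and Kif11 from −0.08 to 0.89. Of the regulators and inhibitors, Mybl2 ranged from −0.73 to 0.31, E2f1 from −0.32 to 0.080, E2f7 from −0.44 to 0.82, Cdkn1a from −1.04 to 0.77, Cdkn2b from −0.23 to 3.99 and Ccnd1 from −1.32 to 0.0067. Cdkn1a also turned to 0.31 with edgeR and with DESeq2 (0.31); the cause was not tested. The lowest count of a member was 407 reads, and each label had 3 lines.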
